A study of Homo sapiens with 4 samples.

Results

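The BCL2 family of apoptosis regulators was examined through 10 of its genes, BCL2, BCL2L1, MCL1, BAX, BAK1, BCL2L11, BBC3, PMAIP1, BID and BIK, chosen by gene symbol from the 35979 symbols in the tables. RNA came from NCI-H1048, a human cell line established from small cell lung cancer and of the tuft cell-like class, which is marked by the transcription factor POU2F3. The 4 poly(A) RNA libraries were 2 labelled as COLCA2 knockout, each made with a different COLCA2 guide RNA (gRNA), 1 labelled as POU2F3 knockout and 1 wild-type library with a non-targeting gRNA, called the control library here. COLCA2 encodes a co-activator that works with POU2F3. The labels list no drug treatment and give neither the time after editing nor whether the edited cells were pools or clones. Each of the 10 symbols had 1 row, and all 10 genes were among the 14940 whose normalized count averaged at least 20 over the libraries.

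BCL2 family proteins decide whether the outer mitochondrial membrane is opened, the step that releases cytochrome c and starts the caspase cascade. BAX and BAK1 form the pores. BCL2, BCL-XL (from BCL2L1) and MCL1 hold the pore-forming proteins in check, and BH3-only proteins such as BIM (BCL2L11), PUMA (BBC3), NOXA (PMAIP1), BID and BIK relieve that restraint or activate the effectors directly. In small cell lung cancer the family is best known for abundant BCL2, the protein that the BH3-mimetic drug venetoclax was designed to bind.

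Reads assigned to genes numbered from 21587741 to 29632382 per library. As a check of the labels, POU2F3 was at 9.92% of the control level with the POU2F3 guide, and at 25.2% and 16.1% with COLCA2 guide 1 and 2. COLCA2 RNA was at 55.8% and 63.4% with its own guides, short of a 2-fold drop, and at 24.9% with the POU2F3 guide, so COLCA2 RNA was lowest in the POU2F3 library. Exons of the antisense gene COLCA1 overlap those of COLCA2 over 436 bp. Of 8 tuft markers 6 passed the expression minimum, and TRPM5 and PTGS1 did not. The summed normalized count of the 8 was 40686 in the control library and between 9680 and 14162 in the others. Most of the control sum was SOX9, at 17848, and the targeted gene POU2F3 itself, at 14602, so the sum is not separate from the label check. Each of the 6 was lower in every edited library. The sum of the 3 epithelial markers was 11335 in the control library and between 23694 and 34570 in the others, with KRT8 and KRT18 higher and EPCAM lower there. Of 5 neuroendocrine markers 2 passed, with a sum over the 5 of 198 in the control library and between 90.6 and 94.8 in the others. CHGA stayed at or below a normalized count of 2.52 in every library, and none of 3 blood cell markers passed the minimum, with CD3E at 0 in all 4. Among 4 fibroblast markers, 3 passed, and the sum of the 4 was 1205 in the control library and between 1145 and 1431 in the others, most of it COL1A1, while PDGFRB went from 22.9 to between 79.7 and 187. Of 3 endothelial markers 2 passed, and the sum of the 3 was 65.9 in the control library and at most 52.9 in the others. The part of these shifts in the results below was not tested, and in bulk RNA fewer cells expressing a gene and less RNA per cell cannot be told apart.

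Levels are normalized counts. Ratios are log2 differences of (normalized count + 1) from the single control library, which every ratio shares. A gene was called where it was at least 2-fold apart, with both guides for COLCA2. Such a call has no p-value, since there was 1 POU2F3 library and 1 control. The spread between the COLCA2 guides was the only error within a group. Across the 12159 genes with a mean of at least 100 the guides differed by a median of 0.11 on the log2 scale, with a 95th percentile of 0.44. The 10 BCL2 family genes differed between the guides by a median of 0.066 and by at most 0.16.

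The anti-apoptotic genes lay on opposite sides of their control levels. BCL2 was near 50% of its control level with the COLCA2 guides and a little above that with the POU2F3 guide, whereas BCL2L1 rose at least 2-fold in all 3 edited libraries. MCL1 rose at least 2-fold with the POU2F3 guide and was higher by a smaller margin with the COLCA2 guides. The effector BAX stayed close to its control level, and among the BH3-only genes BBC3 had the highest ratios.

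BCL2, the founding anti-apoptotic member, lies on the minus strand of chromosome 18 at 63123346 to 63320128 (GRCh38). Its normalized count was 1971 in the control library, 988 with COLCA2 guide 1, 983 with COLCA2 guide 2 and 1128 with the POU2F3 guide. The 3 edited libraries lay close together, and all were far below the control library. The mean log2 ratio with the COLCA2 guides was -0.999 ± 0.0050 (SD, n = 2), and the ratio with the POU2F3 guide was -0.80. BCL2 sat on the 2-fold line for COLCA2: the ratio was -0.9956 with guide 1, just short of it, and -1.0026 with guide 2, just past it, where 3.64% of all genes were 2-fold lower with guide 2 alone and 7.25% higher. The levels were 50.1% (95% exact interval 46.4% to 54.2%) and 49.9% (46.0% to 54.1%) of control with COLCA2 guide 1 and 2, and 57.2% (53.4% to 61.3%) with the POU2F3 guide. Such intervals hold counting error alone, and PCR copies of a molecule are not separated from it. Of all 14940 genes, 3.05% had a mean ratio with the COLCA2 guides as low as that of BCL2, and 4.5% had a ratio with the POU2F3 guide as low.

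BCL2L1 encodes BCL-XL and, from a shorter splice form, a pro-apoptotic product that gene-level counts do not separate. The gene lies on the minus strand of chromosome 20 at 31664452 to 31723989. It was the one gene called with both targets, so the stretch before its first annotated exon is shown, at chr20:31723990-31724213 (RefSeq window, GRCh38.p14, minus strand), next to that of BBC3, whose ratios were the highest among the BH3-only genes, at chr19:47232767-47232917 (minus strand). Both end where an annotated exon of the gene begins, and capitals mark matches to the motifs searched.
BCL2L1: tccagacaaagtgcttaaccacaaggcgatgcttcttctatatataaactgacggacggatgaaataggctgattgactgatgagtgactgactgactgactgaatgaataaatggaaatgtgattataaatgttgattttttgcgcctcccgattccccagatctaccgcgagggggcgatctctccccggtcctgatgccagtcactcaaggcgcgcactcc
BBC3: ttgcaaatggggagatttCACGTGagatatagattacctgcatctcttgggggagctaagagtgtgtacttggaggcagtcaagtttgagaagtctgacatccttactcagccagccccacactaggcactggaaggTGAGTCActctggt
The search covered the 250 bases before each RefSeq start on both strands for the POU octamer (ATGCAAAT), the AP-1 motif (TGAGTCA or TGACTCA) and the E-box CACGTG, none of which overlap in these windows. The motifs were chosen after the promoters had been seen. Of the 10 genes 8, all but MCL1 and BIK, had a window in the RefSeq table, 13 windows in all. None of the 8 held the octamer, which 1.63% of the 35116 windows in the table hold. BBC3 alone held an AP-1 motif, present in 4.2% of all windows. The E-box occurred in BAX, BBC3 and BID, in 4 of the 13 windows of the 8 genes, against 6.34% of all windows; 2 of the 4 are overlapping BID windows that hold the same E-box. A match describes the letters only and says nothing of binding. The BCL2 window lay within annotated exons and is not shown.

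BCL2L1 had a normalized count of 1454 in the control library, 3469 with COLCA2 guide 1, 3535 with COLCA2 guide 2 and 2956 with the POU2F3 guide. All 3 edited libraries were well above the control library, and the COLCA2 guides were nearly equal. The mean log2 ratio was 1.27 ± 0.019 (SD, n = 2) with the COLCA2 guides and 1.02 with the POU2F3 guide. As a share of the control level, BCL2L1 reached 239% (224% to 254%) and 243% (229% to 259%) with COLCA2 guide 1 and 2 and 203% (191% to 216%) with the POU2F3 guide. Scaling the libraries to equal totals lowered the POU2F3 ratio to 0.99, just under the 2-fold line. Exons of ABALON, an antisense gene not analysed here, overlap exons of BCL2L1 over 1424 bp, and no source used here states whether reads were counted by strand, which makes the BCL2L1 counts uncertain to that extent.

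MCL1, a short-lived anti-apoptotic protein that binds BIM and NOXA, is encoded on the minus strand of chromosome 1 at 150574551 to 150579738. The control library held a normalized count of 6491, against 10276 with COLCA2 guide 1, 11161 with COLCA2 guide 2 and 13441 with the POU2F3 guide. The POU2F3 library was the highest and the COLCA2 libraries came next. The single control value was the lowest, as at 34.4% of all genes. The log2 ratio was 1.05 with the POU2F3 guide and 0.72 ± 0.084 (SD, n = 2) with the COLCA2 guides, which fell short of the 2-fold line. MCL1 was thus at 207% (201% to 213%) of control with the POU2F3 guide, and at 158% (154% to 163%) and 172% (167% to 177%) with COLCA2 guide 1 and 2. Splice forms of MCL1 were not separated either.

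**Figure D1:**
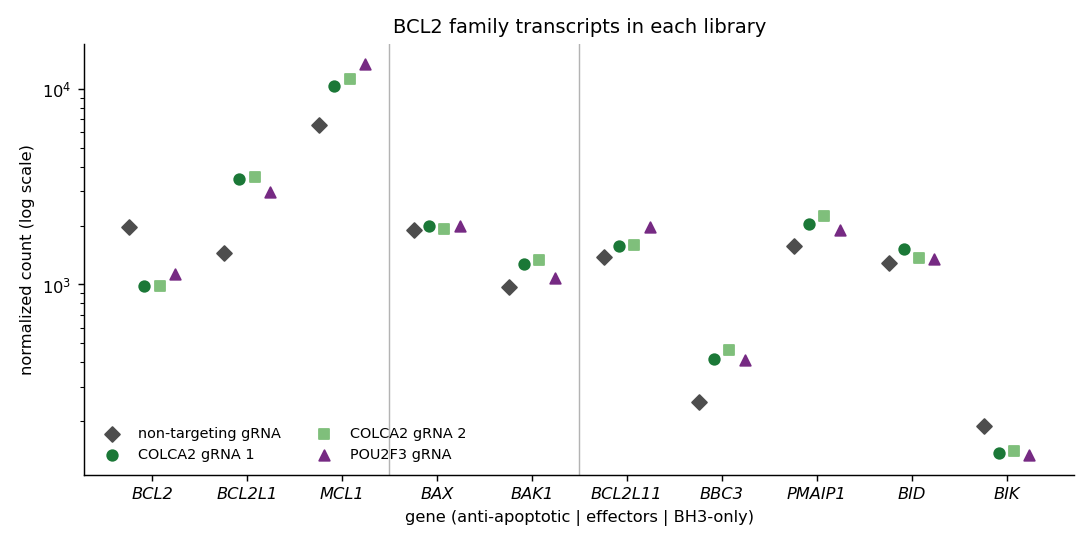
Normalized count (log axis) of each of the 10 genes in the 4 libraries, 1 point per library, grouped as anti-apoptotic, effector and BH3-only genes. BCL2 and BIK were highest in the control library, and the other 8 genes were lowest there, with BAX nearly level at 1908 to 1999.

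Because BCL2 was below control where BCL2L1 and MCL1 were above it, ratios of their reads within a library were also taken, which do not depend on the scaling between libraries. These ratios were chosen after the values had been seen. There were 0.738 BCL2L1 reads per BCL2 read in the control library (95% exact interval 0.690 to 0.789), 3.51 and 3.60 with COLCA2 guide 1 and 2 and 2.62 with the POU2F3 guide. Relative to the control library the ratio was 4.76, 4.87 and 3.55 times as high. MCL1 reads per BCL2 read went from 3.29 to 10.4, 11.4 and 11.9 in the same order. The ratio of BAX to BCL2 reads, a commonly quoted measure, was 0.968 in the control library, 2.02 and 1.94 with the COLCA2 guides and 1.76 with the POU2F3 guide, while BAX itself stayed between 100.1% and 104.8% of its control level. The MCL1 to BCL2L1 ratio was 4.46 in the control library and 4.55 with the POU2F3 guide, but 2.96 and 3.16 with COLCA2 guide 1 and 2.

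Per kilobase of the longest annotated transcript, MCL1 had the highest level of the 3 anti-apoptotic genes in every library and BCL2 the lowest. MCL1 stood at 1651 normalized counts per kb in the control library, BCL2L1 at 557 and BCL2 at 264. BCL2 made up 10.7% of the summed level of the 3 genes there, and 3.25%, 3.05% and 3.22% with COLCA2 guide 1, COLCA2 guide 2 and the POU2F3 guide. The share of BCL2L1 was 22.5% in the control library, 32.6% and 31.3% with the COLCA2 guides and 24.1% with the POU2F3 guide. With the median instead of the longest transcript length BCL2 held 9.97% in the control library and between 2.71% and 2.99% in the others, and the order of the 3 genes was the same in every library.

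**Figure D2:**
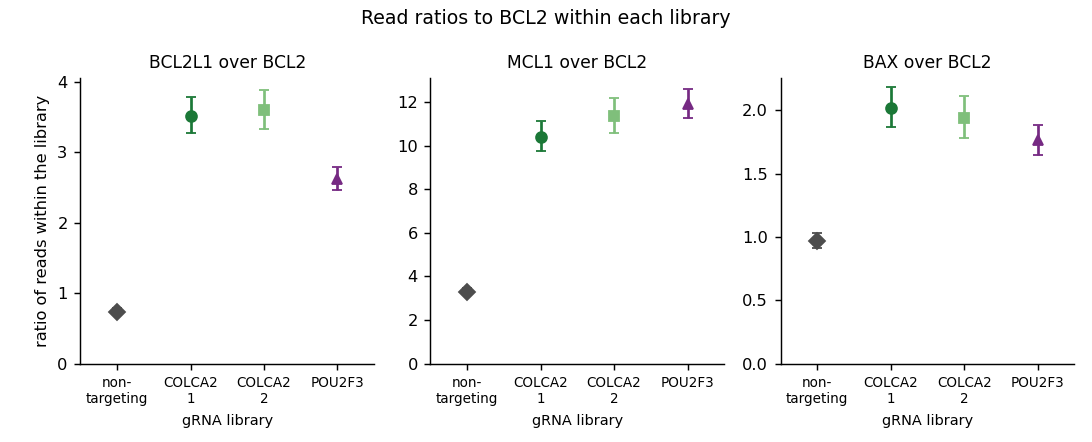
Reads of BCL2L1, MCL1 and BAX per BCL2 read within each library (linear axes from 0), with 95% exact intervals that cover counting error only. In each panel the control library, at 0.738, 3.29 and 0.968, lies below the 3 edited libraries, and its interval does not meet theirs.

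Neither effector gene was 2-fold apart, and BAK1 stood further from its control level than BAX with every guide. BAX (plus strand of chromosome 19, 48954815 to 48961798) had normalized counts of 1908 in the control library, 1999 and 1910 with COLCA2 guide 1 and 2 and 1988 with the POU2F3 guide. Its 4 values spanned a narrow range, with log2 ratios of 0.034 ± 0.046 (SD, n = 2) for COLCA2 and 0.060 for POU2F3, and the first turned to -0.035 when totals were made equal. BAK1 (minus strand of chromosome 6, 33572547 to 33580293), the other pore former, had normalized counts of 973 in the control library, 1272 and 1332 with the COLCA2 guides and 1079 with the POU2F3 guide. The COLCA2 libraries were higher than the POU2F3 library, with a mean log2 ratio of 0.42 ± 0.047 (SD, n = 2) against 0.15. Per kb of longest transcript, BAX held between 70.0% and 76.2% of the summed effector level in the 4 libraries.

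Among the BH3-only genes, BBC3 had the highest ratios and BIK the lowest. BBC3 (minus strand of chromosome 19, 47220822 to 47232766) encodes PUMA, a stress-inducible protein that binds all of the anti-apoptotic members. Its normalized count was 252 in the control library, 415 and 465 with COLCA2 guide 1 and 2 and 413 with the POU2F3 guide. These 3 libraries were all above the control library without reaching 2-fold, with log2 ratios of 0.80 ± 0.12 (SD, n = 2) for COLCA2 and 0.71 for POU2F3. BBC3 had between 264 and 492 reads per library, so its level relative to control was less precise, at 164% (141% to 191%) with the POU2F3 guide.

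BCL2L11 (plus strand of chromosome 2, 111119378 to 111168447) encodes BIM, a direct activator of BAX and BAK1. Its normalized count was 1375 in the control library, 1569 and 1601 with the COLCA2 guides and 1973 with the POU2F3 guide. The POU2F3 library stood above the rest: its log2 ratio was 0.52, beside 0.20 ± 0.021 (SD, n = 2) for COLCA2. Exons of the antisense gene MIR4435-2HG, not analysed here, overlap its exons over 727 bp, which leaves BCL2L11 uncertain in the same way as BCL2L1.

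PMAIP1 (plus strand of chromosome 18, 59899948 to 59904306), whose product NOXA chiefly binds MCL1, had normalized counts of 1579 in the control library, 2043 and 2244 with the COLCA2 guides and 1907 with the POU2F3 guide. All 3 were above the control library by less than 1.5-fold, and the log2 ratios were 0.44 ± 0.095 (SD, n = 2) and 0.27. BID (minus strand of chromosome 22, 17734138 to 17774770), which caspase-8 cleaves to join death receptors to the mitochondria, had normalized counts of 1290 in the control library, 1524 and 1370 with COLCA2 guide 1 and 2 and 1351 with the POU2F3 guide. The guides differed by 0.15 on the log2 scale at BID, more than the 0.087 by which guide 2 stood above the control, and the ratios were 0.16 ± 0.11 (SD, n = 2) for COLCA2 and 0.067 for POU2F3. BIK (plus strand of chromosome 22, 43110748 to 43129712), a BH3-only protein of the endoplasmic reticulum, was the other gene highest in the control library, at 189 against 138 and 141 with the COLCA2 guides and 134 with the POU2F3 guide. With 120 to 198 reads per library, BIK was the least deeply covered member, and its log2 ratios were -0.44 ± 0.024 (SD, n = 2) and -0.49.

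Per kb of the longest transcript, PMAIP1 had the highest level of the 5 BH3-only genes in every library, between 42.1% and 47.8% of their sum. That order depended on the length used: with the median transcript length BCL2L11, which has 25 annotated transcripts, came first in every library, at 38.2% to 46.0%. BBC3 and BIK were the lowest pair with either length. BBC3 passed BIK in the 3 edited libraries and lay below it in the control library.

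**Figure D3:**
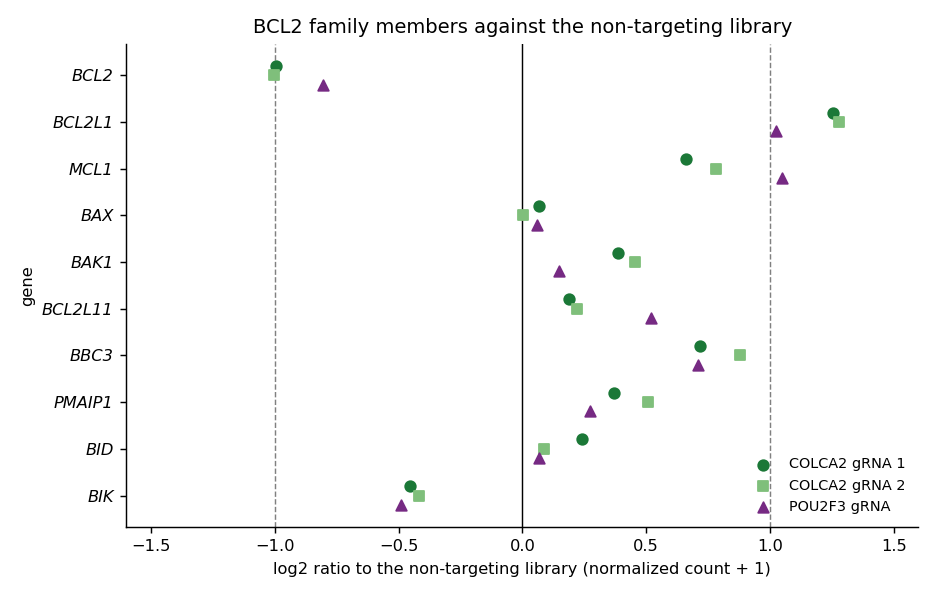
Log2 ratio of each of the 10 genes to the control library, for COLCA2 guide 1 and 2 and the POU2F3 guide, with dashed lines at 2-fold. BCL2 lies at the lower line with both COLCA2 guides, BCL2L1 lies past the upper line in all 3 libraries, and MCL1 lies past it with the POU2F3 guide only.

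Counted over the family, 2 of 10 genes rose at least 2-fold with the POU2F3 guide (BCL2L1 and MCL1), where 6.73% of all genes tested did, and 0 were 2-fold lower, where 3.05% of all genes were. With both COLCA2 guides 1 of 10 rose (BCL2L1; 5.79% of all genes) and 0 were lower (2.02%). In all 3 libraries 1 of 10 rose, beside 4.89% of all genes. A 1.5-fold threshold gave the same 4 genes for each target, BCL2 lower and BBC3, BCL2L1 and MCL1 higher. Of all genes, 7.69% were lower and 12.2% higher with the POU2F3 guide at that threshold, 6.03% and 9.71% with both COLCA2 guides, and 4% and 8.14% in all 3 libraries. The median log2 ratio of the 10 genes was 0.21 with the POU2F3 guide and 0.31 with the COLCA2 guides, beside -0.0037 and -0.0087 for all genes. The control library was below all 3 others at 8 of the 10 genes, where 34.4% of all genes showed this, and above them at BCL2 and BIK (35.3%). Among the 8, the exact intervals included the control level at BAX in every edited library. The same held at BID with the POU2F3 guide and COLCA2 guide 2.

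A test on the recovered reads, edgeR's quasi-likelihood test with Benjamini-Hochberg adjustment over 14940 genes, gave more calls, but rests on 1 residual degree of freedom, supplied by the pair of COLCA2 libraries. It therefore compares libraries, not conditions, and for POU2F3 it borrows the COLCA2 spread. With the POU2F3 guide it called BCL2 lower (3.98% of all genes) and BCL2L1, BCL2L11 and MCL1 higher (8.45%). With the COLCA2 guides it called BCL2 lower (7.51%) and BAK1, BBC3, BCL2L1, MCL1 and PMAIP1 higher (11.4%). BAX, BID and BIK were called in neither comparison.

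The POU2F3 and COLCA2 libraries were then compared directly, without the shared control. None of the 10 genes was 2-fold apart from both COLCA2 libraries in 1 direction, where 1.37% of all genes were, and none was 1.5-fold apart, where 4.42% were. In edgeR's quasi-likelihood test 0 of 10 genes passed an adjusted p of 0.05 (0.234% of all genes were lower and 0.107% higher), and 3 (BCL2L1, BCL2L11 and MCL1) had an unadjusted p under 0.05, as did 13.6% of all genes. MCL1 was higher with the POU2F3 guide by 0.39 and 0.27 on the log2 scale than with COLCA2 guide 1 and 2, and BCL2L11 by 0.33 and 0.30. BCL2L1 had differences of -0.23 and -0.26, and BAK1 of -0.24 and -0.30. BCL2 was higher with the POU2F3 guide by 0.19 and 0.20. The 95% exact interval of the POU2F3 library level excluded equality with both COLCA2 libraries at 6 of the 10 genes, those 5 and PMAIP1, and at 32.1% of all genes. The same interval between the guides excluded equality at 3 of the 10 (BID, MCL1 and PMAIP1) and at 37.7% of all genes, so libraries of 1 group also differed beyond counting error.

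Other genes of the pathway were read from 5 lists with 67 genes, 62 of which passed the expression minimum. These lists, like the 10 genes, were chosen with earlier results of these data known. Their counts beside the share of all genes are therefore descriptions, not tests. In all 3 edited libraries 6 of the 62 rose at least 2-fold (BMF, FAS, TNFRSF1A, TNF, TP63 and STAT3; 4.89% of all genes) and 0 were lower (1.5%). Without the expression minimum, and with TMM or DESeq2 scaling, the 6 genes were the same. Lifting the minimum could not drop a called gene, and the DESeq2 size factors nearly repeat the deposited scaling. The edgeR quasi-likelihood test called 11 of the 62 in both comparisons with the control, 1 lower (APAF1; 3.23% of all genes) and 10 higher (7.33%). STAT3 dropped out with equal totals, and TNF when only the highest of its rows was used or the minimum was raised to 100.

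Of the 13 other BCL2 family genes 11 passed the minimum. BMF was the 1 that rose in all 3 edited libraries, where 4.89% of all genes rose. BMF, a BH3-only protein tied to the cytoskeleton until it is released, had a normalized count of 747 in the control library, 1614 and 1911 with COLCA2 guide 1 and 2 and 3419 with the POU2F3 guide. It was higher in every edited library, and its log2 ratios of 2.19 with the POU2F3 guide and 1.23 ± 0.17 (SD, n = 2) with the COLCA2 guides were above those of every BH3-only gene among the 10. BOK, a BAX-like effector, had a normalized count of 460 in the control library and 647 to 806 in the others, short of 2-fold. BAD, BCL2L2 (BCL-W), BCL2L12, BCL2L14, BNIP3 and HRK had log2 ratios between -0.18 and 0.18 in every library. The remaining ratios with the POU2F3 guide were 0.45 for BCL2L13, 0.62 for the mitophagy receptor BNIP3L and -0.28 for BCL2L15. The anti-apoptotic gene BCL2A1 was listed at 0 in all 4 libraries, and BCL2L10 had at most 25.2.

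None of the 15 genes of mitochondrial execution, such as cytochrome c (CYCS) and the initiator caspase CASP9, was 2-fold apart in any comparison. Of all genes 3.05% were lower and 6.73% higher with the POU2F3 guide, and 2.02% and 5.79% with both COLCA2 guides, so a count of 0 of 15 is near the background. The list median was -0.027 with the POU2F3 guide and -0.038 with the COLCA2 guides. APAF1, the scaffold on which caspase-9 is activated, was the lowest of them and was named after its values had been seen. Its normalized count was 2628 in the control library, 1416 and 1568 with COLCA2 guide 1 and 2 and 1512 with the POU2F3 guide, with log2 ratios of -0.82 ± 0.10 (SD, n = 2) and -0.80. APAF1 was thus lower in all 3 libraries. Its ratio was close to that of BCL2 with the POU2F3 guide, but less low than the -0.999 of BCL2 with the COLCA2 guides.

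Of the 8 genes of the inhibitor-of-apoptosis (IAP) list, which bind caspases or regulate that binding, 7 passed the minimum and 0 were 2-fold apart, which for so few genes is also near the background. XIAP, the direct caspase inhibitor, had a log2 ratio of -0.15 with the POU2F3 guide, and survivin (BIRC5), which is tied to cell division, had -0.31. BIRC3 had the highest ratio of the list, 0.69 ± 0.095 (SD, n = 2) with the COLCA2 guides, and -0.050 with the POU2F3 guide. BIRC2 had 0.20 ± 0.090 (SD, n = 2) and 0.10. The list median was -0.12 with the POU2F3 guide and -0.24 with the COLCA2 guides.

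Death receptor genes held 3 of the 6 rises, from 13 genes past the minimum, where 4.89% of all genes rose in all 3 edited libraries. As the list was chosen with earlier results known, this count describes the list only. TNFRSF10A had the lowest ratios of the list, -0.54 with the POU2F3 guide and -0.29 ± 0.064 (SD, n = 2) with the COLCA2 guides. FASLG was at 0 in all 4 libraries, and TNFSF10 was below the minimum. FAS, the receptor for FAS ligand, had a normalized count of 441 in the control library and 1166, 1358 and 1228 with COLCA2 guide 1, COLCA2 guide 2 and the POU2F3 guide. TNFRSF1A, the main TNF receptor, had 905, and 2320, 2329 and 2147 in the same order, so both receptors were well above the control level in every edited library. TNF itself was low, at 18.1 in the control library and between 58.1 and 95.7 in the others. TNFRSF10D, a decoy receptor for TRAIL, rose with both COLCA2 guides and had a log2 ratio of 0.82 with the POU2F3 guide. CASP8, which cuts BID, had ratios of -0.12 with the POU2F3 guide and -0.22 ± 0.015 (SD, n = 2) with the COLCA2 guides, and its inhibitor CFLAR had 0.63 and 0.65 ± 0.11.

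The list of 16 regulators held transcription factors with known sites in BCL2 family genes and enzymes that set MCL1 stability. Of the 16, 2 rose in all 3 edited libraries, where 4.89% of all genes did. STAT3, a known activator of BCL2L1 and MCL1 transcription, had a normalized count of 2104 in the control library and 4351, 4877 and 4541 with COLCA2 guide 1, COLCA2 guide 2 and the POU2F3 guide. TP63, a transcription factor of basal epithelia, had 38.2, and 188, 265 and 159. DDIT3, a stress factor upstream of BBC3, had log2 ratios of 0.63 with the POU2F3 guide and 0.79 ± 0.018 (SD, n = 2) with the COLCA2 guides. FBXW7, a ubiquitin ligase subunit for MCL1, had -0.55 and -0.61 ± 0.0024, and HUWE1, another MCL1 ligase, had -0.27 and -0.16 ± 0.16. MARCH5 and USP9X, enzymes of the same list, had 0.077 and 0.39 with the POU2F3 guide. With the COLCA2 guides they had -0.18 ± 0.32 and -0.059 ± 0.082. Protein levels were not measured.

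**Figure D4:**
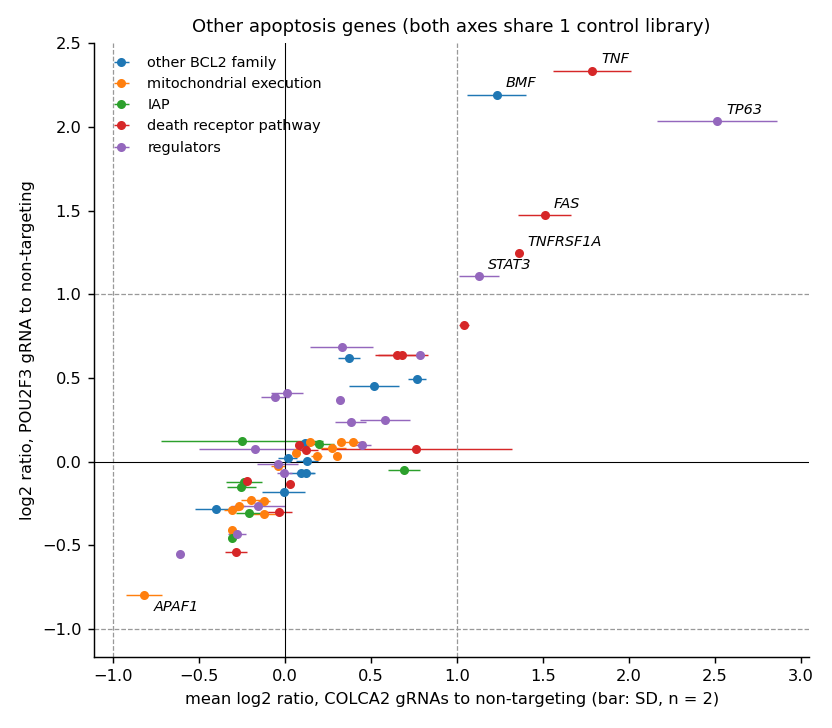
Log2 ratio with the POU2F3 guide (vertical) against the mean log2 ratio with the COLCA2 guides (horizontal, bars show the SD between the guides) for the 62 other apoptosis genes past the minimum, coloured by list, with dashed lines at 2-fold. The 6 genes past 2-fold in all 3 libraries and APAF1 are named; both axes share the control library, so points near the diagonal are no independent agreement.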

How the data were processed

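Poly(A) RNA from 4 NCI-H1048 libraries was measured, grouped by the labels. Per the submitters' processing notes Salmon, DESeq2 and build hg38 were used, with no versions or roles given. The deposited values are normalized counts per the file headers, a linear signal. In each library 100% of values were whole multiples of 1 step to within 0.001 of a read, so reads were recovered, though estimated counts may have been rounded before division. Members and lists were chosen with earlier results of these data known. Rows of a symbol were summed. Named genes are the 10 members, the other BCL2 family list and genes of the remaining lists at least 2-fold apart in all 3 gRNA libraries; others were named after their values were seen. Ratios used a pseudocount of 1 and an expression minimum of 20. Exact (Clopper-Pearson) 95% intervals used recovered reads. The COLCA2 libraries differ in guide and no guide has a repeat library, so their SD mixes guide differences with technical error. The alternatives were 3 scalings (TMM, DESeq2 size factors, equal totals), other pseudocounts, minimums and thresholds, 1 row per symbol, each guide left out, edgeR 4.0.16 (R 4.3.3, DESeq2 1.42.0) and, added later, another transcript length. Only the edgeR fit and a copy of the 2-fold rule were run on simulated counts, with changes larger than those of any member. Positions and transcript lengths are from GENCODE release 29, promoters from RefSeq (GRCh38.p14). Some genes of the lists are not reported here by name.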

Additional observations from a re-analysis of the deposited data

How the results depend on the processing

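No paired analysis was possible because only the COLCA2 group has more than 1 library. Of 100 member ratios recomputed under other scalings and pseudocounts, 87 moved by less than the SD between the COLCA2 guides and 13 by more. The POU2F3 ratios, from 1 library, have no spread of their own and were judged by that same SD. Equal totals gave 10 of these 13, from 20 ratios. The DESeq2 size factors nearly repeat the deposited scaling, and a pseudocount of 0.1 is small beside these counts. Ratios under those settings could hardly move, so the 87 overstate how stable the ratios were. Among the 100, no called ratio changed sign, the largest move was 0.069, and BAX with COLCA2 gRNA turned to -0.035 with equal totals. Other minimums and the choice of row could not move a member, and leaving out 1 of 2 guides shifts their mean by a fixed part of the SD, so these are not counted. With equal totals, 1 member was 2-fold apart with POU2F3 gRNA (MCL1) and 2 with both COLCA2 gRNAs (BCL2 and BCL2L1), and the medians were 0.18 and 0.24. That scaling moved the median of all genes to -0.038 and -0.077. The 1.5-fold threshold gave 4 members for each target and the 4-fold threshold 0, with 1 pathway gene (TP63). The edgeR test called 4 members with POU2F3 gRNA, 6 with COLCA2 gRNA and 11 of 62 pathway genes in both comparisons, 10 of them higher (7.33% of all genes). Leaving out a guide gave 1 or 2 members with COLCA2 gRNA (2, BCL2 and BCL2L1, without gRNA 1) and medians of 0.31 to 0.34. The count of 0 between POU2F3 gRNA and both COLCA2 gRNAs was the same under every alternative run. As no member was even 1.5-fold apart there, most alternatives could not have changed that count. Depth limits BIK and BBC3 most. With 1 control library, a deviation of that library at a gene cannot be told apart from an effect of every guide.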
